A study of Vitis vinifera with 15 samples.

Results

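Stilbene synthases join coumaroyl-CoA and malonyl-CoA into resveratrol, the parent compound of the grapevine stilbenes, which are antifungal phytoalexins. They draw on the same substrates as chalcone synthase, the first enzyme of the branch that leads to flavonols and anthocyanins. In grapevine the enzyme is encoded by a large family of near-identical genes that lie in tandem in a large cluster on chromosome 16 and a smaller one on chromosome 10. The transcription factors MYB14 and MYB15 are known to activate promoters of this family, and stilbenes accumulate in berry skin during ripening and after UV light, wounding or infection.

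The genes described here were all those of the expression table with identifiers from VIT_16s0100g00750 to VIT_16s0100g01200 (39 genes, chromosome 16) and from VIT_10s0042g00840 to VIT_10s0042g00930 (10 genes, chromosome 10), together with MYB14 (VIT_07s0005g03340) and MYB15 (VIT_05s0049g01020). They made up 51 of the 31924 genes listed. They were chosen by identifier and not by level. The table pairs no identifier with a position or a sequence.

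Messenger RNA of berry skin was sequenced from 5 table grape cultivars, with 3 libraries each and 15 in all. Summer Black has a strawberry aroma and dark red skin. Shine muscat and Centennial Seedless have a muscat aroma and lime-green skin, and Midknight Beauty has a muscat aroma and dark red skin. Victoria is neutral, without a marked aroma, and lime-green. The labels name no treatment, and per the methods all vines grew in one vineyard. The labels place all libraries at the ripe stage and call those of a cultivar replicates 1 to 3, as does the study's account of its sequencing. Its methods, in contrast, assign the 3 libraries to 3 stages around ripening. They are treated here as replicates, as labelled, and the p-values measure the spread between these libraries, part of which may be technical.

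Levels are given in FPKM, a fragment count scaled to transcript length and to the number of mapped fragments in the library. The FPKM of all genes summed to between 718652 and 786207 per library, and 9440 to 10976 genes were listed at 0 in a library. The table holds no counts per gene, and the read totals that the study lists per library were not used, so no counting error is given for low values. Those totals show a lower share of mapped reads for Summer Black replicate 3 and Shine muscat replicate 1 than for the other libraries. No identifier in the table could be matched to a named skin marker, so the tissue was not checked by its markers. Reads from near-identical copies can be shared or split between genes during counting, so the value of a single stilbene synthase gene is uncertain and the sum of a cluster is given beside it. In whole skin, fewer cells of a type and less RNA per cell cannot be told apart.

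Of the 49 stilbene synthase genes, 42 reached an FPKM of 1 in at least 3 of the 15 libraries and entered the tests, 34 on chromosome 16 and 8 on chromosome 10. MYB14 and MYB15 passed as well. Of the 7 genes that did not pass, VIT_10s0042g00900, VIT_16s0100g00870, VIT_16s0100g00970, VIT_16s0100g01060 and VIT_16s0100g01080 were listed at 0 in every library. VIT_10s0042g00910 reached at most 1.13 FPKM, in Summer Black replicate 3, and VIT_16s0100g01110 at most 1.49 FPKM, in Victoria replicate 3. A gene can pass this filter through the libraries in which it is high, so the counts below over the 42 genes that passed are descriptions of those genes.

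The stilbene synthase clusters were at an even level in 2 cultivars and swung between libraries in the other 3. The summed FPKM of both clusters was 325.6, 377.2 and 397.5 in the 3 Victoria libraries, with a mean of 367 ± 37.0 (SD, n = 3). In Shine muscat it was 199.1, 196.1 and 195.9, with a mean of 197 ± 1.77 (SD, n = 3). Every Victoria library thus lay above every Shine muscat library, and the Shine muscat libraries lay within 1.02-fold of each other.

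In Midknight Beauty the summed FPKM was 22.6, 196.1 and 267.2 in replicates 1, 2 and 3, with a mean of 162 ± 126 (SD, n = 3). In Centennial Seedless it was 63.0, 201.2 and 304.9, with a mean of 190 ± 121 (SD, n = 3). In Summer Black it was 48.5, 15.6 and 502.8, with a mean of 189 ± 272 (SD, n = 3). The libraries of 1 cultivar therefore spanned 11.8-fold in Midknight Beauty, 4.84-fold in Centennial Seedless and 32.3-fold in Summer Black, against 1.22-fold in Victoria.

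Summer Black held both the highest and the lowest library of all 15, replicates 3 and 2. As a share of the FPKM of all genes the clusters ranged from 0.00210% in Summer Black replicate 2 to 0.0673% in Summer Black replicate 3. Over the 18194 tested genes outside the described set, the log2 levels of Summer Black replicate 3 correlated with those of replicates 1 and 2 at r = 0.95 each, and those of replicates 1 and 2 with each other at r = 0.94. Replicate 3 also had the lower share of mapped reads noted above, whose part in the result was not tested. Calls, overlaps, cultivar orders and correlations are given below with and without this library. It stood out by its values for these same genes, so the results without it are descriptions and no independent support.

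**Figure D1:**
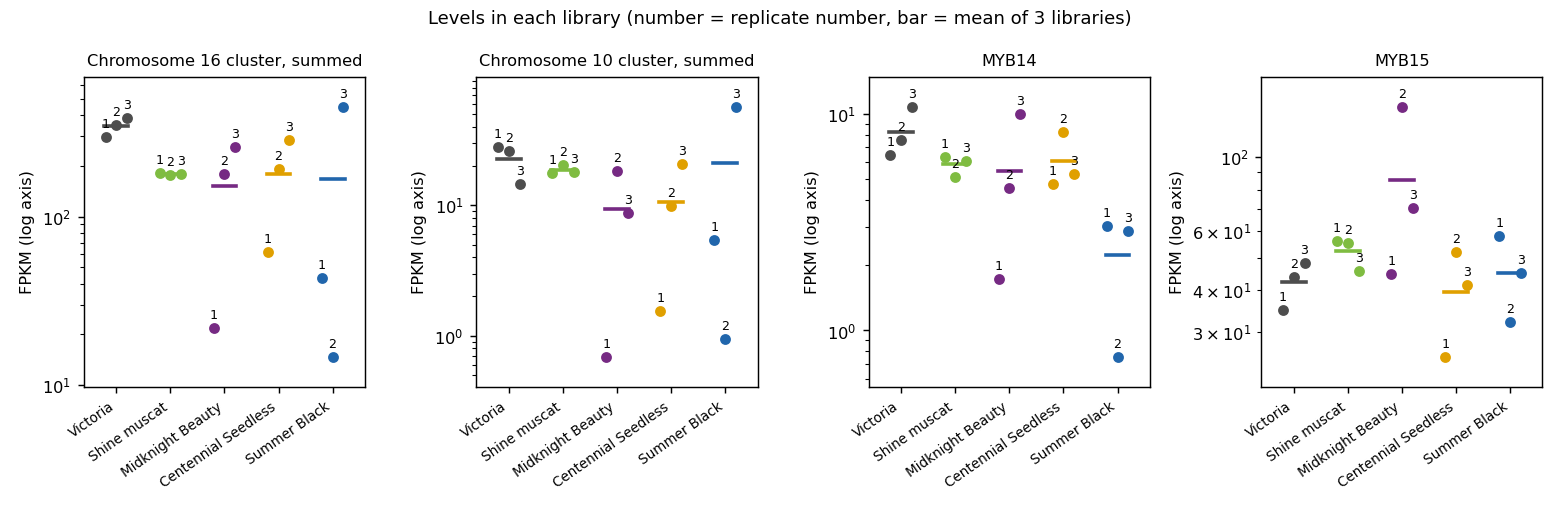
Summed FPKM of the chromosome 16 and chromosome 10 clusters and FPKM of MYB14 and MYB15 in each library (log axes, 1 point per library, numbered by replicate, bar = mean of 3 libraries). The Victoria and Shine muscat points lie close together for both clusters, whereas the Summer Black points for both clusters together reach from 15.6 to 502.8.

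Both clusters took part in these swings. The chromosome 16 cluster summed to 297.8, 351.3 and 382.9 FPKM in Victoria, 181.4, 175.6 and 178.0 in Shine muscat, and 43.1, 14.6 and 446.1 in Summer Black. It summed to 21.9, 177.6 and 258.4 FPKM in Midknight Beauty and to 61.5, 191.3 and 284.4 in Centennial Seedless. It carried most of the family's transcript in every library.

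The chromosome 10 cluster summed to 27.8, 25.9 and 14.6 FPKM in Victoria, 17.7, 20.4 and 17.9 in Shine muscat, and 5.40, 0.941 and 56.7 in Summer Black. It summed to 0.686, 18.4 and 8.77 FPKM in Midknight Beauty and to 1.54, 9.89 and 20.6 in Centennial Seedless. Its share of the family sum ranged from 2.45% in Centennial Seedless replicate 1 to 11.3% in Summer Black replicate 3. The clusters differed in the order of libraries in Midknight Beauty, where all 8 tested chromosome 10 genes were highest in replicate 2 and 26 of 34 chromosome 16 genes in replicate 3. In Victoria the chromosome 10 sum was lowest in replicate 3, the library in which the chromosome 16 sum was highest.

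Single genes moved with their cluster. A range of at least 2 on the log2(FPKM + 1) scale between the 3 libraries of a cultivar was seen in 40 of 42 genes in Summer Black, against 3.72% of all 18238 tested genes. It was seen in 22 of 42 in Midknight Beauty (3.13% of all tested genes) and in 12 of 42 in Centennial Seedless (2.21%). In Victoria 1 of 42 genes had such a range (2.58% of all tested genes), and in Shine muscat 0 of 42 (0.378%).

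The median range of the 42 genes was 3.26 in Summer Black, 2.06 in Midknight Beauty and 1.72 in Centennial Seedless on the log2 scale. Over all tested genes the medians were 0.51, 0.46 and 0.44 in the same cultivars. In Shine muscat the median of the 42 genes, 0.23, was below that of all genes, 0.26, and in Victoria it was 0.63 against 0.45. The gene with the wide range in Victoria was VIT_10s0042g00880, listed at 0, 4.38 and 1.30 FPKM there.

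**Figure D2:**
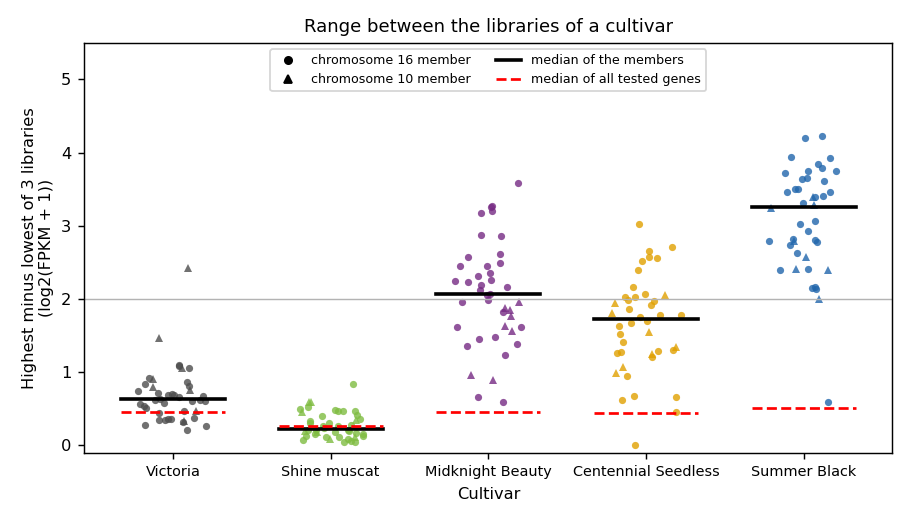
Highest minus lowest of the 3 libraries of a cultivar on the log2(FPKM + 1) scale, 1 point per tested stilbene synthase gene (circles, chromosome 16; triangles, chromosome 10), with the median of the 42 genes (solid bar) and of all 18238 tested genes (dashed bar). The median of the 42 genes was 3.26 in Summer Black and 0.23 in Shine muscat, with all-gene medians of 0.51 and 0.26.

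The genes also took the same order of libraries. In Summer Black all 42 were highest in replicate 3, where 28.8% of all tested genes were highest. There 35 of 42 were lowest in replicate 2, against 26.2% of all tested genes. In Midknight Beauty all 42 were lowest in replicate 1, against 31.3% of all tested genes. In Centennial Seedless 41 of 42 were highest in replicate 3 and 39 of 42 lowest in replicate 1, against 25.5% and 42.3% of all tested genes. In Victoria the highest library was replicate 1 for 15 genes, replicate 2 for 11 and replicate 3 for 16, against 13.2%, 47.7% and 38.0% of all tested genes. In Shine muscat it was replicate 1 for 12, replicate 2 for 16 and replicate 3 for 14, against 56.2%, 26.7% and 15.8%.

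Each of the 42 genes was correlated with the summed FPKM of the rest of the 49 stilbene synthase genes, over deviations of the 15 log2 values from the cultivar means. The correlation had a median of r = 0.93 and was at least 0.8 in 40 of 42 genes. It was lowest in VIT_16s0100g00760, at r = 0.60. Over the 18194 tested genes outside the set the median was r = -0.04, and 1.36% reached 0.8. Leaving out Summer Black replicate 3, the median of the 42 genes was r = 0.87, with 30 of 42 at 0.8 or above, and 1.63% of the genes outside the set reached 0.8. Copies that share reads can correlate for that reason, and the points share their libraries, so these values carry no p.

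The chromosome 16 and chromosome 10 sums, which come from different chromosomes, correlated at r = 0.91 over 15 libraries and r = 0.95 over the deviations, on the log2 scale. When Summer Black replicate 3 was left out both values were 0.90, and without all 3 Summer Black libraries both were 0.89. Reads could still be shared between the clusters.

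Genes beside the clusters did not reach the correlations with the family sum seen in most of its own genes. Up to 20 genes before and 20 after each cluster by identifier were taken as neighbours, 31 on chromosome 16, of which 22 were tested, and 40 on chromosome 10, of which 13 were tested. None of these 35 reached r = 0.8 with the family sum, either over the 15 libraries or over the deviations, and their highest value was 0.68. Of the tested genes outside the set, 0.148% reached 0.8 over the libraries and 1.36% over the deviations. A count of 0 in 35 is thus near the share of all genes. In Summer Black the median range between libraries was 0.62 in the chromosome 16 neighbours and 0.41 in the chromosome 10 neighbours on the log2 scale. There 0 of the 35 had a range of at least 2, near the 3.72% of all tested genes. In the other cultivars none of the 22 chromosome 16 neighbours had such a range. Of the 13 chromosome 10 neighbours, 2 had it in Centennial Seedless, 1 each in Midknight Beauty and Victoria, and 0 in Shine muscat. The shares of all tested genes in these cultivars were 2.21%, 3.13%, 2.58% and 0.378%.

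**Figure D3:**
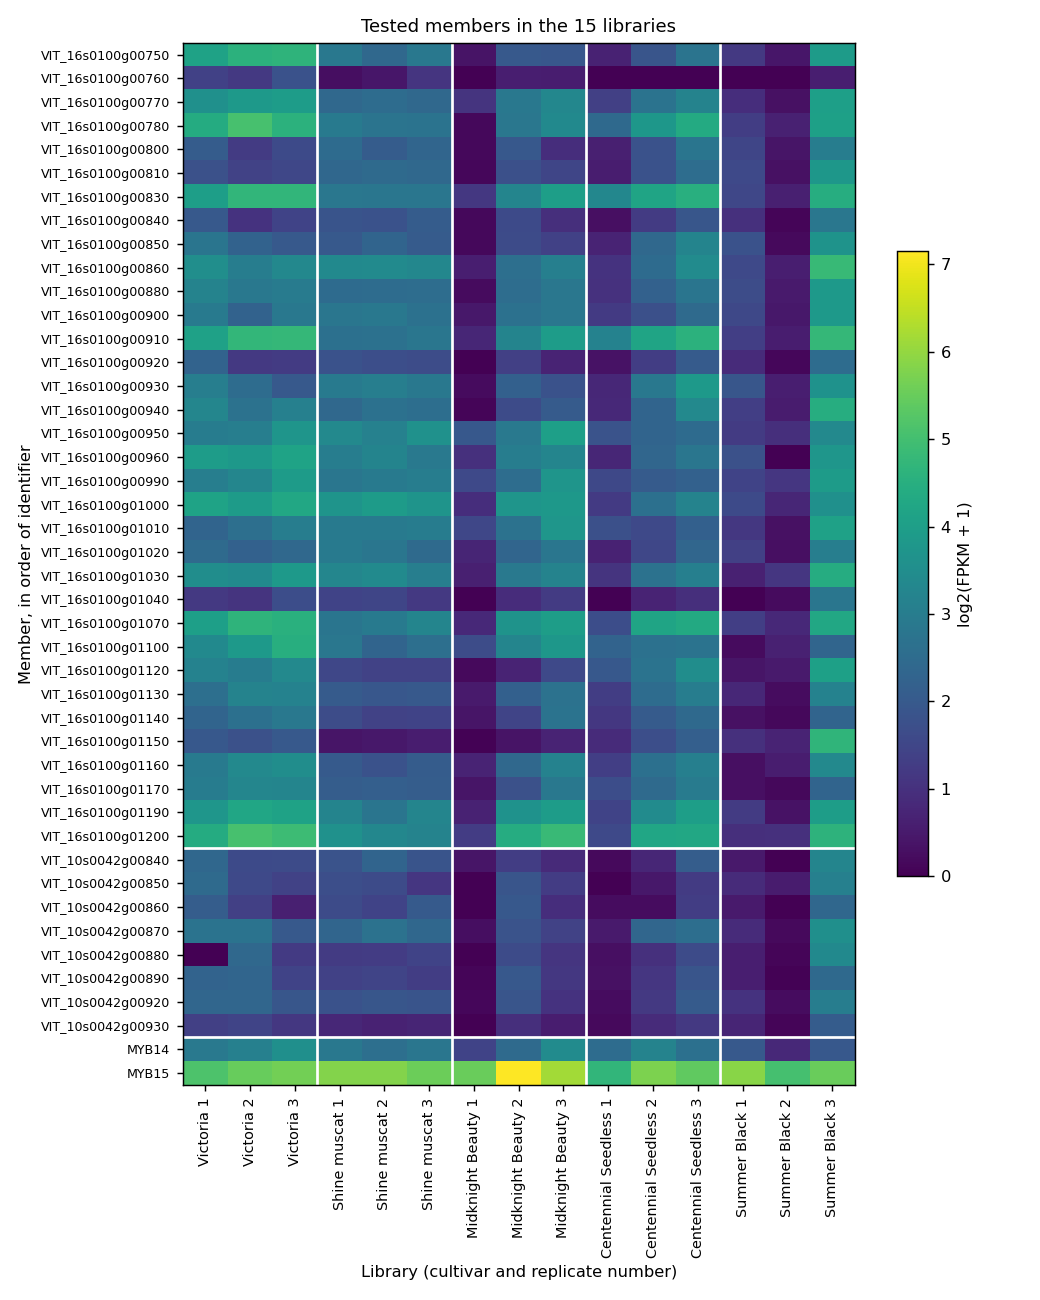
log2(FPKM + 1) of the 42 tested stilbene synthase genes, MYB14 and MYB15 (lines of the map, in order of identifier) in the 15 libraries (columns, 3 per cultivar), from dark (0) to yellow. Midknight Beauty replicate 1 and Summer Black replicate 2 are dark for nearly the whole family, and all 42 genes reached their highest Summer Black value in replicate 3.

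The 10 genes of highest mean FPKM all lay on chromosome 16 and held between 30.1% and 56.3% of the family sum in a library. VIT_16s0100g01200 led with a mean of 14.9 FPKM over 15 libraries. It was at 20.2, 32.8 and 29.0 FPKM in Victoria, 11.2, 8.91 and 8.21 in Shine muscat, and 0.961, 0.972 and 23.5 in Summer Black. In Midknight Beauty it was at 1.40, 20.4 and 27.6 FPKM and in Centennial Seedless at 1.98, 17.9 and 18.6. Its Summer Black libraries overlapped those of Victoria only through replicate 3.

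The other 9 were VIT_16s0100g00910, VIT_16s0100g00830, VIT_16s0100g01070, VIT_16s0100g00780, VIT_16s0100g01000, VIT_16s0100g01190, VIT_16s0100g00860, VIT_16s0100g00750 and VIT_16s0100g01030, with means from 12.3 down to 7.36 FPKM. VIT_16s0100g00860 was highest in Summer Black replicate 3, at 27.4 FPKM, against 1.98 and 0.518 in replicates 1 and 2. VIT_16s0100g01030 was at 20.3 FPKM in Summer Black replicate 3 and at 0.581 in replicate 1. VIT_16s0100g00780, in contrast, was at 20.1, 32.3 and 23.2 FPKM in Victoria and at 15.6 in Summer Black replicate 3, so that Victoria stayed above every Summer Black library.

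VIT_16s0100g01000 was at 12.1, 14.1 and 12.1 FPKM in Shine muscat, close to its 16.9, 14.3 and 18.4 in Victoria, and at 1.33, 5.27 and 8.23 in Centennial Seedless. VIT_16s0100g01070 was at 5.93, 6.73 and 8.61 FPKM in Shine muscat and at 15.3, 24.1 and 22.2 in Victoria. VIT_16s0100g01190 was at 12.6, 17.8 and 16.4 FPKM in Victoria and at 8.36, 5.82 and 8.58 in Shine muscat. These genes thus differed in how far Shine muscat lay below Victoria. VIT_16s0100g00860 was not lower in Shine muscat, with a mean of 9.37 FPKM there and 8.98 in Victoria.

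On chromosome 10, VIT_10s0042g00870 had the highest mean, 3.58 FPKM. It was at 5.66, 5.66 and 2.95 FPKM in Victoria, 4.06, 5.43 and 4.26 in Shine muscat, and 0.838, 0.130 and 10.8 in Summer Black. In Midknight Beauty it was at 0.207, 2.57 and 1.66 FPKM and in Centennial Seedless at 0.432, 4.11 and 4.97. Victoria and Shine muscat overlapped, and Summer Black replicate 3 stood above all other libraries.

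Between cultivars, the mean log2 level was highest in Victoria for 27 of 42 genes, in Shine muscat for 13 and in Summer Black for 2. Of all 18238 tested genes it was highest for 2379, 6243 and 3707 in the same order. The Shine muscat count was thus near the share of all genes. The mean was lowest in Midknight Beauty for 17 of 42, in Summer Black for 17 and in Centennial Seedless for 8. Over all tested genes these counts were 4146, 5383 and 2866. All 3 Victoria libraries lay above all 3 of Shine muscat in 23 of 42 genes, against 15.2% of all tested genes. They lay above all 3 of Midknight Beauty in 19 of 42 (11.5% of all tested genes), above all 3 of Centennial Seedless in 16 of 42 (10.6%) and above all 3 of Summer Black in 7 of 42 (17.3%). These comparisons share the Victoria libraries. Without Summer Black replicate 3, the Victoria libraries lay above both remaining Summer Black libraries in 39 of 42 genes (20.7% of all tested genes). The lowest mean was then in Summer Black for 39 of 42, in Centennial Seedless for 2 and in Midknight Beauty for 1. Over all 18238 tested genes these counts were 5181, 2945 and 4137. The highest mean was in Victoria for 28 and in Shine muscat for 14, against 2406 and 6227 of all tested genes. The library left out was the highest of Summer Black for all 42 genes, so leaving it out lowered Summer Black for each of them. The standing of Summer Black thus turned on this library. The single library Summer Black replicate 3 was the highest of all 15 for 25 of the 42 genes, and for 1771 of all tested genes.

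The strawberry against neutral comparison set the 3 Summer Black libraries against the 3 of Victoria. A gene was called when limma gave a log2 difference of at least 2 in either direction with a Benjamini-Hochberg adjusted p of at most 0.01 over all 18238 tested genes, with two-sided tests here and below. None of the 42 stilbene synthase genes was called, against 1.24% of all tested genes. Their median log2 difference was -0.99, 38 of 42 differences were below 0, and 12 were at -2 or lower. Of all 18238 tested genes, 9498 were below 0 and 344 at -2 or lower, with a median of -0.02. The unadjusted p was under 0.05 for 12 of the 42 genes, 28.6%, close to the 25.8% of all tested genes.

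Without Summer Black replicate 3, 8 of the 42 genes were called in this comparison and all 8 were lower in Summer Black, where 0.329% of all tested genes were called lower. These were VIT_16s0100g00750, VIT_16s0100g00770, VIT_16s0100g00780, VIT_16s0100g01070, VIT_16s0100g01120, VIT_16s0100g01160, VIT_16s0100g01170 and VIT_16s0100g01200, all on chromosome 16. In this fit Summer Black had 2 libraries, and the one left out was its highest for all 42 genes. Leaving it out lowers Summer Black for each of these genes, a choice that the share of all tested genes does not carry. VIT_16s0100g01200 was then lower by a log2 difference of -3.82 (SE 0.27, limma adjusted p = 0.00596). With all 3 libraries the difference of the same gene was -2.61 (SE 0.98, limma adjusted p = 0.159). The call thus depended on 1 library.

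The muscat against neutral comparison set the 9 libraries of Shine muscat, Midknight Beauty and Centennial Seedless against the 3 of Victoria. None of the 42 genes was called, against 0.258% of all tested genes. The median log2 difference was -0.90 and 40 of 42 differences were below 0, as were 7982 of all 18238 tested genes. The unadjusted p was under 0.05 for 17 of 42 genes, 40.5%, and for 13.6% of all tested genes. VIT_16s0100g00750 came nearest, with a log2 difference of -2.48 (SE 0.50, limma adjusted p = 0.0200). The 9 muscat libraries came from 3 cultivars and were treated as separate samples.

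Across the 5 cultivars, a gene was called at an adjusted p of at most 0.01 for the F test and a difference of at least 2 between the highest and lowest cultivar mean on the log2 scale. None of the 42 genes was called, against 7.81% of all tested genes. The unadjusted p was under 0.05 for 5 of 42 genes, 11.9%, and for 52.9% of all tested genes. A difference of at least 2 between cultivar means was nevertheless seen in 13 of the 42, and in 1830 of all 18238 tested genes. Differences of that size between cultivar means thus did not exceed the spread between libraries by this test. Without Summer Black replicate 3 the F test called 4 genes, VIT_16s0100g00750, VIT_16s0100g00830, VIT_16s0100g01100 and VIT_16s0100g01120, against 7.14% of all tested genes, a share near that of the 42. Without Midknight Beauty replicate 1 it called 1, against 7.61%.

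The 10 pairs of cultivars were compared from the fit of all 15 libraries. With the percentage of all tested genes called in the pair in parentheses, 0 of the 42 genes were called for Shine muscat against Midknight Beauty (2.1%), Centennial Seedless (2.24%), Summer Black (3.64%) and Victoria (2.43%). The count was also 0 for Midknight Beauty against Centennial Seedless (1.29%), Summer Black (2.69%) and Victoria (1.06%), and for Centennial Seedless against Summer Black (2.71%) and Victoria (1.22%). In these 9 pairs between 0 and 6 of the 42 genes, at most 14.3%, had an unadjusted p under 0.05, against 19.0% to 37.7% of all tested genes. For Summer Black against Victoria 1 gene was called, with 2.45% of all tested genes called in either direction and 1.39% called lower. In this pair 17 of the 42 genes, 40.5%, had an unadjusted p under 0.05, against 32.6% of all tested genes. Without Summer Black replicate 3 the calls over all pairs numbered 18. Of these, 10 were for Summer Black against Victoria, all lower, where 2.22% of all tested genes were called and 1.29% called lower. The others were 3 for Shine muscat against Summer Black (3.12%), 2 for Midknight Beauty against Victoria (1.06%) and 1 each for Midknight Beauty against Summer Black (2.22%), Centennial Seedless against Summer Black (2.52%) and Centennial Seedless against Victoria (1.22%). Without Midknight Beauty replicate 1 there were 2 for Summer Black against Victoria (2.46%) and 1 for Midknight Beauty against Summer Black (2.36%).

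The called gene was VIT_16s0100g01100. It was at 9.47, 13.5 and 21.4 FPKM in Victoria and at 0.146, 0.573 and 4.05 in Summer Black. In Shine muscat it was at 6.11, 3.95 and 5.11 FPKM, in Midknight Beauty at 2.17, 8.49 and 12.8, and in Centennial Seedless at 3.87, 5.30 and 5.66. Every Victoria library lay above every Summer Black library, replicate 3 included. The log2 difference between Summer Black and Victoria was -2.85 (SE 0.56, limma adjusted p = 0.00342).

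This call rested on the shared estimate of the spread. In the fit of Summer Black and Victoria alone the adjusted p for VIT_16s0100g01100 was 0.0361 with limma. When 1 library at a time was left out of the fit of 15, the difference ranged from -3.49 to -2.42 and the call was kept in 11 of 15 fits. It was lost without Victoria replicate 2 (adjusted p = 0.0138), Victoria replicate 3 (0.0156), Summer Black replicate 1 (0.0139) or Summer Black replicate 2 (0.0149).

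VIT_16s0100g00760 was the gene with the smallest adjusted p among the 42 in the F test, 0.00366 with limma, and was singled out after its values were seen. It was at 1.62, 1.29 and 2.51 FPKM in Victoria, 0.196, 0.357 and 1.15 in Shine muscat, and listed at 0 in all 3 Centennial Seedless libraries. In Midknight Beauty it was at 0, 0.509 and 0.479 FPKM and in Summer Black at 0, 0 and 0.511. Every Victoria library lay above the other 12, but the level was low throughout. The difference between cultivar means stayed under 2 on the log2(FPKM + 1) scale, so the gene was not called. It reached 1 FPKM only in the 3 Victoria libraries and Shine muscat replicate 3, and so passed the filter through Victoria. The filter thus favoured its p and this order of libraries, which are no support for a difference.

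Some genes took a share of the family sum that set 1 cultivar apart. For 10 of the 42 genes at least 1 cultivar had all 3 of its shares above or below those of the 12 other libraries. These genes were chosen by their shares and all 42 were searched, so the values are a description with no test and no background, and unequal sharing of reads between copies in different cultivars was not tested. VIT_16s0100g00750 held 5.01% to 6.16% of the family sum in Victoria and 0.951% to 3.23% in the other libraries. Its levels were 16.3, 23.3 and 24.0 FPKM in Victoria and 6.26, 4.31 and 6.32 in Shine muscat.

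In Centennial Seedless, VIT_16s0100g00830 held 7.16% to 14.1% and VIT_16s0100g00910 held 7.53% to 12.8%, against at most 6.67% and 6.82% elsewhere. Both genes had their smallest shares in Shine muscat, 3.04% to 3.11% and 2.60% to 3.05%. VIT_16s0100g01130 was also above the others in Centennial Seedless, at 2.29% to 2.38%, by a narrow margin over 2.19%.

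Summer Black stood apart for 5 genes. VIT_16s0100g01150 held 2.07% to 4.85% there and 0.148% to 1.33% elsewhere. It was at 1.01, 0.647 and 24.4 FPKM in Summer Black and at 2.95, 2.45 and 2.98 in Victoria. VIT_16s0100g00880 and VIT_10s0042g00850 also had larger shares in Summer Black, and VIT_16s0100g01140 and VIT_16s0100g01170 smaller ones, the last at 0.487% to 0.780% against at least 1.22% elsewhere. Margins were narrow for VIT_16s0100g00880 (2.64% against 2.53%), VIT_10s0042g00850 (1.53% against 1.40%) and VIT_16s0100g01140 (0.789% against 0.849%). Summer Black shares also rest on low values, with VIT_10s0042g00850 at 0.838 and 0.470 FPKM and VIT_16s0100g01140 at 0.243 and 0.109 in replicates 1 and 2. VIT_16s0100g00940 had a smaller share in Midknight Beauty, 0.339% to 1.19%, than in any other library, by a narrow margin below 1.21%.

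**Figure D4:**
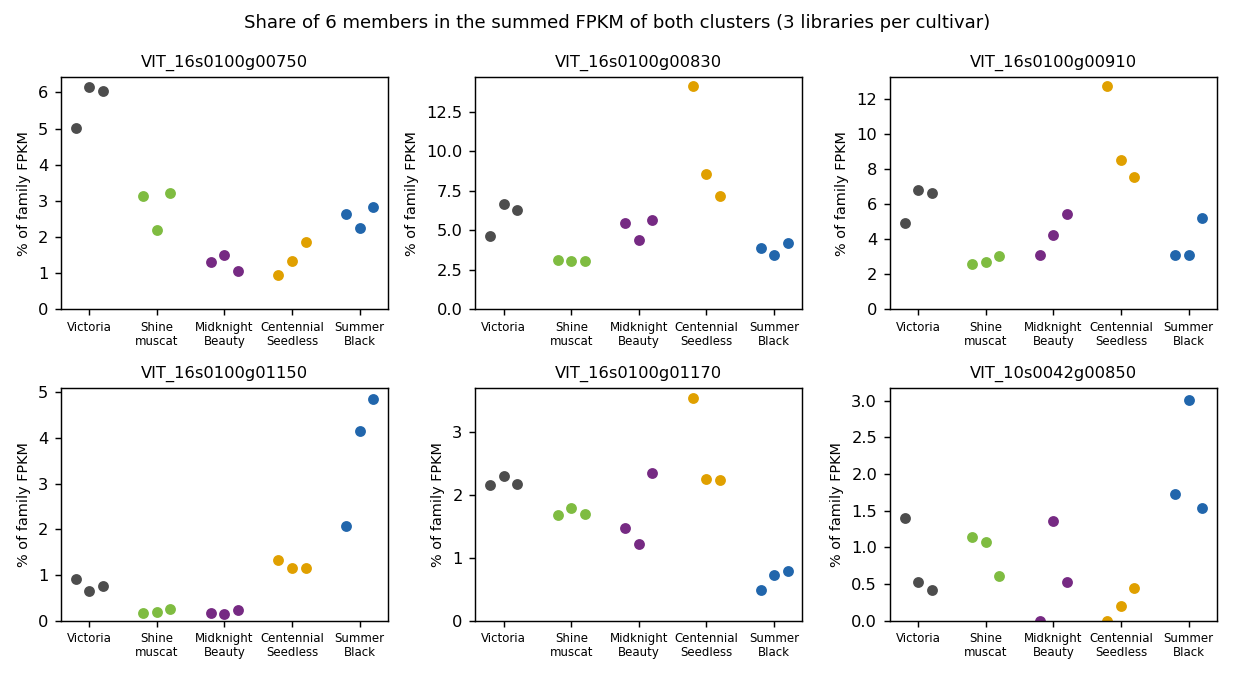
Share of 6 stilbene synthase genes in the summed FPKM of both clusters (linear axis, percent), 1 point per library in order of replicate number. VIT_16s0100g00750 lies at 5.01% to 6.16% in Victoria, and VIT_16s0100g01150 lies at 2.07% to 4.85% in Summer Black, above all other libraries.

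Of the regulators, MYB14 was low and MYB15 was at a moderate level in every library. MYB14 was at 6.42, 7.59 and 10.7 FPKM in Victoria, with a mean of 8.25 ± 2.23 (SD, n = 3). It was at 4.76, 8.22 and 5.27 FPKM in Centennial Seedless (6.08 ± 1.87, SD, n = 3) and at 6.34, 5.12 and 6.06 in Shine muscat (5.84 ± 0.640, SD, n = 3). It was at 1.72, 4.55 and 9.99 FPKM in Midknight Beauty (5.42 ± 4.20, SD, n = 3) and at 3.02, 0.754 and 2.88 in Summer Black (2.22 ± 1.27, SD, n = 3).

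The lowest mean of MYB14 was thus in Summer Black, whose 3 libraries lay below every library of Victoria, Shine muscat and Centennial Seedless. Victoria, Centennial Seedless, Shine muscat and Midknight Beauty, neighbours in this order, overlapped. The log2 difference between Summer Black and Victoria was -1.59 (SE 0.38, limma adjusted p = 0.0539), and that between the muscat cultivars and Victoria was -0.51 (SE 0.33, limma adjusted p = 0.566). The F test among 5 cultivars gave a limma adjusted p of 0.0652. In the fit of all 15 libraries the limma adjusted p for Summer Black against Victoria was 0.0224, with the same difference of -1.59. All these differences were under 2 in size and no adjusted p was at most 0.01, so MYB14 was called in none of these comparisons.

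MYB15 was at 44.7, 141.1 and 70.5 FPKM in Midknight Beauty, with a mean of 85.4 ± 49.9 (SD, n = 3). It was at 56.0, 55.5 and 45.8 FPKM in Shine muscat (52.5 ± 5.73, SD, n = 3) and at 58.0, 32.1 and 45.1 in Summer Black (45.1 ± 13.0, SD, n = 3). It was at 34.9, 43.8 and 48.4 FPKM in Victoria (42.4 ± 6.86, SD, n = 3) and at 25.3, 52.2 and 41.5 in Centennial Seedless (39.7 ± 13.5, SD, n = 3). Neighbours in this order overlapped, and the largest value was that of Midknight Beauty replicate 2.

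The log2 difference of MYB15 was 0.06 (SE 0.24, limma adjusted p = 0.908) between Summer Black and Victoria and 0.34 (SE 0.36, limma adjusted p = 0.772) between the muscat cultivars and Victoria. The F test among 5 cultivars gave a limma adjusted p of 0.173. The sign of the first difference changed with the library left out, to -0.07 without Victoria replicate 1 and -0.14 without Summer Black replicate 1.

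The correlation with the family sum, most of which came from chromosome 16, was higher for MYB14 than for MYB15. This difference was not tested, and it did not hold throughout for the chromosome 10 sum given below. Over 15 libraries the log2 level of MYB14 correlated with the log2 family sum at r = 0.78, over the 5 cultivar means at r = 0.92 and over the deviations from cultivar means at r = 0.73. The correlation over 15 libraries was 0.61 on ranks and 0.52 on FPKM. For MYB15 the values on the log2 scale were 0.25 over 15 libraries, -0.30 over cultivar means and 0.57 over the deviations, with 0.04 on ranks and 0.01 on FPKM. The points share libraries and cultivars, and the values are descriptions.

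MYB14 was nearly equal in Summer Black replicates 1 and 3, at 3.02 and 2.88 FPKM, whereas the family sum was 48.5 and 502.8. Without Summer Black replicate 3 the correlation of MYB14 with the sum was 0.91 over 14 libraries and 0.81 over the deviations, and that of MYB15 was 0.29 and 0.77. Without all Summer Black libraries it was 0.84 for MYB14 over the remaining 12.

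MYB14 correlated with the chromosome 16 sum at r = 0.79 over 15 libraries on the log2 scale, 0.63 on ranks and 0.56 on FPKM. With the chromosome 10 sum the values were 0.54, 0.25 and 0.06, so that relation depended on the scale. MYB15 correlated with the chromosome 10 sum at 0.31 over 15 libraries on the log2 scale, below MYB14. Over the deviations the order was reversed, with 0.63 for MYB15 and 0.56 for MYB14, and 0.82 and 0.55 without Summer Black replicate 3. With the chromosome 16 sum the deviations gave 0.73 for MYB14 and 0.56 for MYB15.

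**Figure D5:**
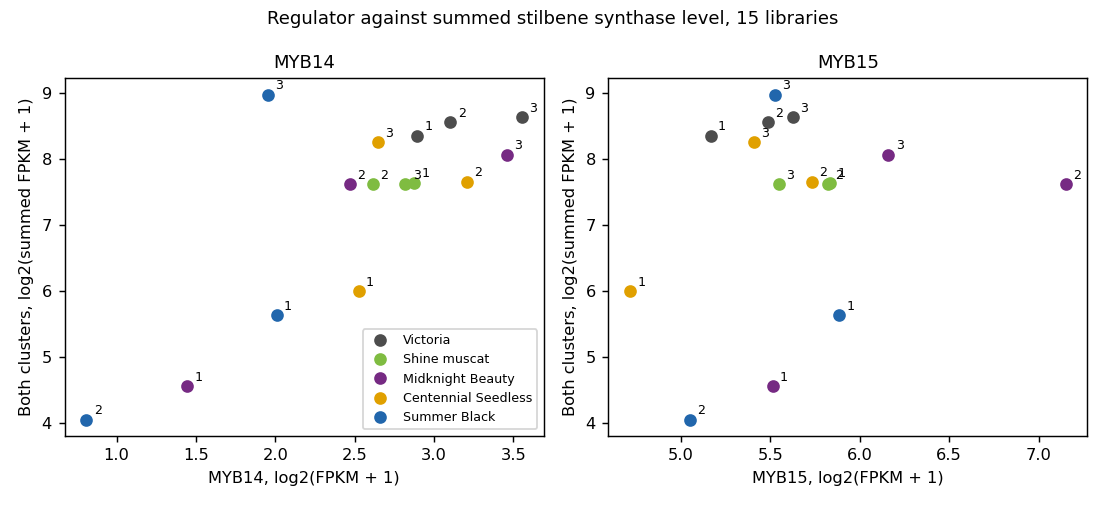
log2(FPKM + 1) of MYB14 (left) and MYB15 (right) against log2 of the summed FPKM of both clusters + 1, 1 point per library, coloured by cultivar and numbered by replicate. For MYB14 the points rise together with r = 0.78, with Summer Black replicate 3 above the rest at its MYB14 level, and for MYB15 r was 0.25.

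Among tested genes outside the set, those most like the family sum over 15 libraries were VIT_16s0039g01130 and VIT_16s0039g01110, both with r = 0.95 on the log2 scale. VIT_16s0039g01110 was at 4.79, 5.63 and 5.47 FPKM in Victoria and at 1.37, 0.390 and 8.48 in Summer Black, the same order of libraries as the family sum in Summer Black. The most opposite were VIT_10s0116g01810 (r = -0.85) and VIT_05s0020g03970 (r = -0.84). VIT_10s0116g01810 was at 32.1, 109.1 and 22.8 FPKM in Summer Black, highest where the clusters were lowest. VIT_05s0020g03970 had a median of 0.160 FPKM over 15 libraries. It reached 1 FPKM only in Midknight Beauty replicate 1 (2.05) and Summer Black replicates 1 (1.54) and 2 (12.4), the libraries of lowest family sum. It passed the filter through these libraries, and its r rests on them.

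The genes most like MYB14 were VIT_05s0077g01560 and VIT_19s0015g00550, both with r = 0.89, and those most like MYB15 were VIT_01s0010g00560 (r = 0.87) and VIT_14s0060g00430 (r = 0.86). They were picked as the extremes of 18238 genes and were paired with no name in the sources used here.

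The number of the library was tested because the study's methods, unlike the labels, tie the libraries of a cultivar to growth stages. In a fit of cultivar and number none of the 42 stilbene synthase genes, MYB14 or MYB15 had an adjusted p of at most 0.01, as for 0% of all tested genes. The smallest adjusted p among the 42 was 0.434 with limma. The unadjusted p was under 0.05 for 20 of 42 genes, 47.6%, all on chromosome 16, and for 10.3% of all tested genes. The fitted difference between libraries numbered 3 and 1 was above 0 for all 42, with a median of 1.19 on the log2 scale and a range from 0.48 to 2.01. Of all 18238 tested genes it was above 0 for 8935, with a median of -0.005. With Summer Black replicate 3 left out it was above 0 for all 42 as well, with a median of 0.80, and for 8867 of all tested genes.

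The cultivars were not alike in this. Library 3 was above library 1 in 42 of 42 genes in Midknight Beauty, 41 in Centennial Seedless and 42 in Summer Black, against 46.1%, 49.6% and 51.2% of all tested genes. It was above library 1 in 24 of 42 in Victoria and 20 of 42 in Shine muscat, against 58.0% and 24.1% of all tested genes. In Summer Black most genes were lowest in library 2, so the levels did not follow the numbers there.

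For the wider phenylpropanoid pathway, the 7 genes that the study named on these libraries (a cytochrome P450, 2 cinnamoyl-CoA reductases, 3 alcohol dehydrogenases and a short-chain dehydrogenase) were read beside the clusters. All 7 were tested, and 6 were called in the F test among 5 cultivars, 2 in the strawberry comparison, both higher in Summer Black, 0 in the muscat comparison and 0 for library number. The study chose these genes on the same libraries, so their count is not independent evidence.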

How the data were processed

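The deposited table lists FPKM values of 31924 genes in 15 skin libraries. Per the study's methods, the authors aligned reads with Bowtie2 to the grapevine reference and estimated FPKM with RSEM, whereas the submitters' processing notes name HISAT2 and StringTie, so which tools made the deposited FPKM values is not settled here. How either treats reads that match several copies bears directly on single stilbene synthase genes. The extraction and library kits named by the labels and the methods also differ. The table holds no counts, so no count model was run, and the read totals that the study lists were not used for counting errors.

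The tests covered the 18238 genes that reached 1 FPKM in 3 or more of the 15 libraries. Values were transformed to log2(FPKM + 1), which understates the change of low genes, and fitted with limma 3.58.1 (lmFit, eBayes with trend) in R 4.3.3, and p-values were adjusted by the Benjamini-Hochberg method across the tested genes. The limma step was tested on simulated data with independent normal values, a capped spread and changes only in genes of higher level. The described genes varied more between libraries and moved together, so that check does not show how the tests perform on them. Sums, shares and correlations were computed in Python 3.11.15 with pandas 2.3.3 and carry no p. The comparisons were strawberry against neutral, muscat against neutral, the F test among 5 cultivars, the 10 cultivar pairs and library number. Alternatives were another pseudocount, filter, scaling, threshold, variance model or set of samples, a block for library number or cultivar, and leaving out each library. Descriptions without Summer Black replicate 3 were added after seeing the data.

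The genes named were MYB14, MYB15, the 10 stilbene synthase genes of highest mean FPKM, those called, and genes outside the set by extreme correlation. Others were named after their values were seen. The members and lists were chosen with earlier results of these data known. None of the table's identifiers matched the 29591 RefSeq genes used for names, so a list of general phenylpropanoid enzymes by product name could not be made.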

Additional observations from a re-analysis of the deposited data

Results flagged for a closer look

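Among the 9 muscat libraries, MYB15 in Midknight Beauty replicate 2, at 141.1 FPKM, lay farther above the next library (70.5 FPKM) than Dixon's 95% limit allows for 9 values. The stilbene synthase gene VIT_16s0100g00760 in Shine muscat replicate 3, at 1.15 FPKM, lay farther above the other 8 than this limit in the same way. Chance marks about 1 in 20 such groups. The cause was not tested.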

How the results depend on the processing

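Of the counts of genes called among the tested stilbene synthases and regulators, 112 of 123 under alternatives other than leaving out a library were within 1.5 times those reported, as were 192 of 213 with a library left out. With a pseudocount of 0.1 the counts were 1 in the F test, 1 for Centennial Seedless against Victoria and 2 over the pairs. Of all 18238 tested genes the F test then called 2610, Centennial Seedless against Victoria 528 and Summer Black against Victoria 1065. With the thresholds of the methods section (a log2 difference of at least 1, adjusted p under 0.005) they were 1, 1 and 3, with 2 for Summer Black against Victoria. In the fit of 5 cultivars the strawberry comparison called 1 of the described genes and 446 of all tested genes. Leaving out 1 library gave 0 to 8 in the strawberry comparison, 0 to 4 in the F test, 0 to 10 for Summer Black against Victoria, 0 to 3 for Shine muscat against Summer Black, 0 to 1 for Midknight Beauty against Summer Black, Centennial Seedless against Summer Black and Centennial Seedless against Victoria, 0 to 2 for Midknight Beauty against Victoria, and 0 to 18 over the pairs. The highest of each range came without Summer Black replicate 3, tied for Midknight Beauty against Summer Black by the fit without Midknight Beauty replicate 1. Without Midknight Beauty replicate 1 the F test also called 1, Summer Black against Victoria 2 and the pairs 3. The MYB15 difference between Summer Black and Victoria ranged from -0.14 to 0.28 when 1 library was left out, and its sign reversed in 2 of these fits (-0.07 and -0.14). Of the differences of named genes, 211 of 213 kept their direction. The cause was not tested.

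Over all genes, the strawberry comparison called 226, with 463 at a pseudocount of 0.1, 97 without a filter and 446 in the fit of 5 cultivars. The muscat comparison called 47, with 132 at that pseudocount, 125 with the thresholds of the methods section, 127 in the fit of 5 cultivars and 24 with cultivar as a random block. The F test called 1424, with 2610 and 3181 at that pseudocount and those thresholds. Median-of-ratios scaling moved the median of all genes between Shine muscat and Victoria from 0.10 by -0.11 on the log2 scale, and the other shifts were under 0.1.

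Library numbers were not taken as pairing. Deviations of same-numbered libraries of different cultivars correlated above 0.1 in 13 of 30 pairs (median 0.04, lowest -0.35, highest 0.60), against 14 of 60 pairs of other numbers (median -0.01). With the number as a replicate block the F test called 1 of the described genes, Summer Black against Victoria 2 and the pairs 2. The shares of all tested genes called in these fits are not given here, so these counts are no result about the described genes. Over all genes the strawberry comparison called 9 with the replicate block and 226 without it. What depth limits was not assessed, since the table gives FPKM only.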
